A study of Populus trichocarpa with 378 samples.

Results

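The transgenic trees described here carried construct i53, labelled as a knockdown of both MYB002 and MYB021 in *P. trichocarpa*. They were represented by 9 of the 378 RNA-seq libraries of the series, taken as the libraries whose labels name i53 in planting batch 6, and came from 3 transgenic lines, numbered 5, 7 and 10, with 3 pools per line. The controls were the 3 wildtype pools of batch 6. Every tree was of genotype Nisqually-1, was grown for 6 months in a greenhouse and was sampled once, and each pool combined the stem-differentiating xylem of 3 to 5 clonally propagated trees, scraped from the debarked stem. The authors drove their monolignol gene constructs with the promoter of Ptr4CL3, which is active in xylem. Their list of those constructs names no MYB target, so the promoter of i53 is not given. Wildtype trees carried no transgene. Each line traces to 1 transformation event, so its 3 pools repeat the same transgene insertion. Whether i53 is an RNA interference or an artificial microRNA construct is not given in the sources used here.

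MYB002 and MYB021 belong to a small group of R2R3-MYB transcription factors of *Populus* that are close relatives of MYB46 and MYB83 of Arabidopsis. In that plant these factors act below the NAC-domain master switches of wood formation. They bind the promoters of genes for cellulose, xylan and lignin and switch on the thickening of the secondary wall. Lignin is built from monolignols, which are made from phenylalanine by a series of enzymes, and cellulose is spun by complexes of cellulose synthase subunits in the plasma membrane. The comparison therefore asks how the xylem transcriptome differed when both switches were targeted.

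The direction of the lignin and cellulose synthase genes could not be stated. The count table names its 41334 genes by genome v3.0 identifiers alone, and 0 of them matched the 34621 genes of the reference table, which belongs to assembly v4.1. MYB002, MYB021, the monolignol genes and the cellulose synthase genes were therefore assigned to no identifier. For the same reason the extent of knockdown was not checked, nor were markers of xylem or of other tissues that scraping could carry along. All results below are by identifier, with no gene function attached. In pooled tissue, fewer cells of a type and less RNA per cell cannot be told apart.

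The i53 pools had 7.02 to 23.9 M counts and the wildtype pools of batch 6 had 8.75 to 22.9 M. No i53 pool stood apart in its distance from wildtype. The distance of a pool from wildtype, taken as the root mean square log2 difference from the wildtype mean over genes with at least 1 CPM, the count scaled to the size of its library, was 0.424 to 0.552 in the 9 i53 pools. Pearson's r of log2 CPM over 24458 genes, given as a description, had a median of 0.975 between pools of the same i53 line, 0.972 between pools of different lines, 0.969 between i53 and wildtype pools and 0.972 between wildtype pools. In other constructs of batch 6 the distance reached 2.19, in a pool of i15, which targets 4CL3 and 4CL5, and the pools of i24, which targets CCoAOMT1 and CCoAOMT2, ranged from 0.457 to 0.566. These constructs were set against the same wildtype pools.

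Against the wildtype pools of batch 6 more genes were called higher than lower in i53, and most differences were under 2-fold. Of 26601 genes with enough counts to be tested, 1624 (6.11%) passed an adjusted p of 0.05 in edgeR's quasi-likelihood test, with 963 (3.62%) higher and 661 (2.48%) lower in i53 than in wildtype. The median log2 fold change was 0.62 among the higher genes and -0.61 among the lower genes, beside 0.01 over all genes tested and a median standard error of 0.14. At least 2-fold differences were called for 166 higher genes (0.624%) and 184 lower genes (0.692%), and at least 4-fold differences for 33 and 41. All 9 i53 pools lay beyond all 3 wildtype pools, in the direction of the call, for 811 of the 963 higher genes and 513 of the 661 lower genes. Over all genes tested, called or not, 5.01% had i53 pools entirely above and 3.58% entirely below wildtype. The calls were made on these same pools, which favours such a separation, so the counts among called genes are descriptive. With the pools of each line added up, which takes the 3 lines as the replicates, 621 genes were higher and 251 lower, and 782 of the 1622 called genes still tested were called in the same direction. When all libraries of batch 6 shared one estimate of the spread the balance turned, with 78 higher and 143 lower. The count of calls was 506 without wildtype pool 1, 701 without pool 2, 729 without pool 3 and 650 without the 3 pools of line 7.

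**Figure D1:**
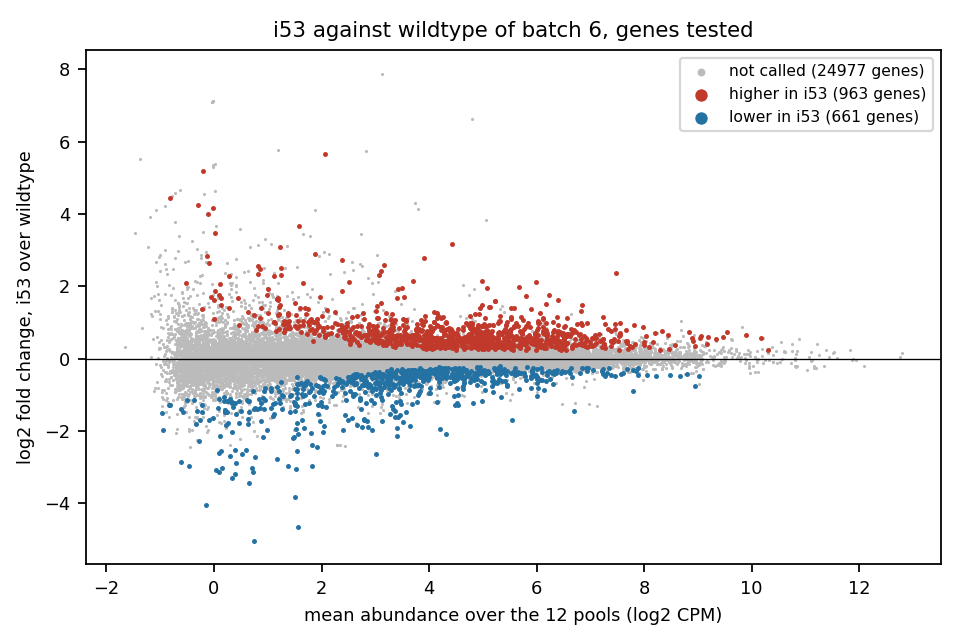
Log2 fold change of i53 over wildtype against mean abundance in log2 CPM, 1 point per gene tested, with 963 genes called higher in red, 661 called lower in blue and the others in grey. Calls with large folds sit mostly at low abundance, and the most abundant genes lie close to 0.

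Called genes were found at all levels of abundance. Genes were ranked by their mean CPM in the 15 wildtype pools of batches 1 to 5, which took no part in the i53 comparison. Of the 100 most abundant, each at 862 CPM or more, 3 were called higher and 0 lower by edgeR, which is 3% beside 6.11% of all genes tested, a difference that was not tested. Their log2 fold changes ran from -0.40 to 0.88 with a median of 0.06 and a median standard error of 0.11. None of the 100 reached a 2-fold difference. These genes together took 14.7 to 17.4% of all counts in wildtype pools and 15.0 to 17.9% in i53 pools, and the groups overlapped. In ranks 101 to 1000, 54 genes were higher and 22 lower (8.46% of those tested), in ranks 1001 to 5000, 210 and 78 (7.21%), and in ranks 5001 to 15000, 454 and 295 (7.51%). Below rank 15000, 242 were higher and 266 lower among 11643 genes tested (4.36%). Summed over the genes called, the higher set came to 34742 CPM in wildtype and 52107 CPM in i53, and the lower set to 23097 and 15912 CPM.

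Of the called genes whose groups did not overlap, the 2 of smallest p in each direction are described here. The separation of i53 from wildtype pools in these genes was therefore fixed by the choice. Potri.015G062200 had 23.3, 25.6 and 23.4 CPM in the wildtype pools. In i53 it had 56, 59.5 and 60.1 CPM in line 5, 59.0, 47.8 and 51.5 CPM in line 7, and 53.2, 47.3 and 46.9 CPM in line 10. Every i53 pool was far above the highest wildtype pool, and line 5 lay above line 10 with line 7 overlapping both. The means were 24.1 ± 1.31 (SD, n = 3) and 53.5 ± 5.42 CPM (SD, n = 9), with a log2 fold change of 1.15 (95% interval 0.94 to 1.36) and an edgeR adjusted p of 1.8e-04.

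Potri.001G256900 had 20.7, 20.8 and 20.2 CPM in wildtype. It had 43.3, 42.3 and 41.5 CPM in line 5, 37.8, 34.5 and 37.7 CPM in line 7, and 41.9, 36.1 and 36.3 CPM in line 10. The wildtype pools lay within 1 CPM of each other and below every i53 pool. The log2 fold change was 0.93 (95% interval 0.75 to 1.10), with an edgeR adjusted p of 1.8e-04.

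Potri.001G059900, the most abundant of the genes named, had 209.5, 152.8 and 230.6 CPM in wildtype. It fell to 73.5, 91.2 and 69.3 CPM in line 5, 79.4, 65.7 and 81.6 CPM in line 7, and 55.7, 61.9 and 72.8 CPM in line 10. The spread between its wildtype pools was wide (SD 40.2 CPM, n = 3). The highest i53 pool was under the lowest wildtype pool, which the choice of genes required. The log2 fold change was -1.45 (95% interval -1.73 to -1.16), with an edgeR adjusted p of 1.8e-04.

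Potri.009G133600 had 13.1, 11.8 and 13.3 CPM in wildtype. It had 5.61, 5.27 and 7.36 CPM in line 5, 6.50, 6.73 and 6.08 CPM in line 7, and 6.57, 7.00 and 6.05 CPM in line 10. The 3 lines were at one level, with a log2 fold change of -1.0 (95% interval -1.22 to -0.78) and an edgeR adjusted p of 1.9e-04.

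**Figure D2:**
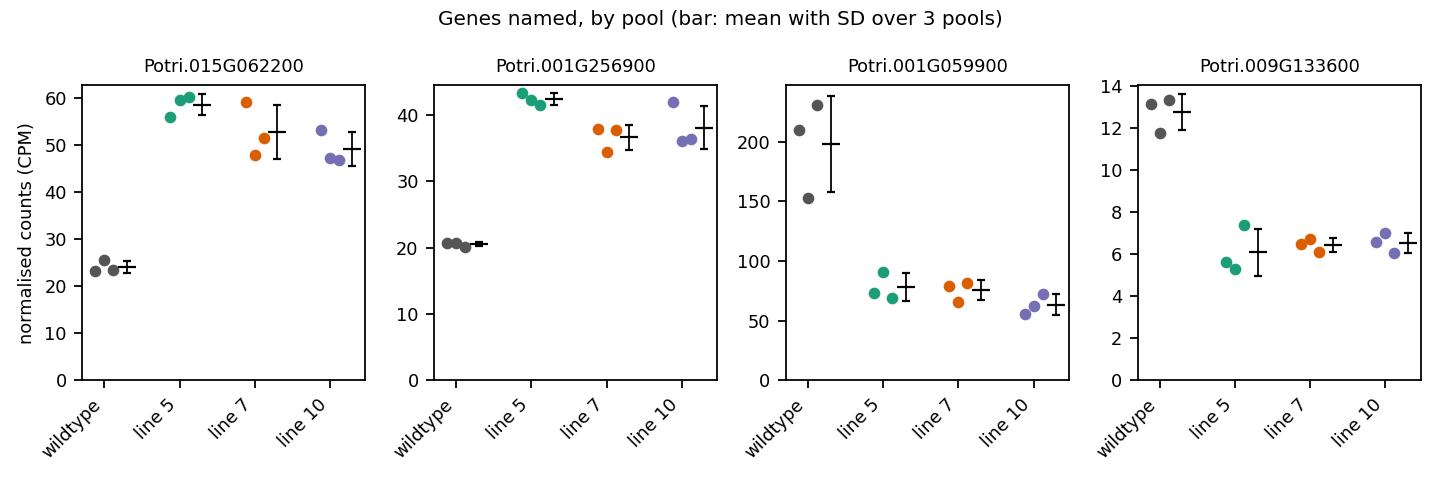
Normalised counts in CPM of the 4 genes named, 1 point per pool, for the 3 wildtype pools and the 3 pools of each i53 line, with the mean and SD over 3 pools beside each group. In every panel the 9 i53 pools lie on one side of the 3 wildtype pools, which the choice of genes required.

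The 3 lines were each compared with the same wildtype pools. Against those pools, line 5 had 402 genes called higher and 135 lower (2.08% of genes tested), line 7 had 843 and 439 (4.93%), and line 10 had 719 and 777 (5.94%). The calls of line 10 leaned to lower genes and those of the other lines to higher genes. The lean of line 10 lay in identifiers of the 009 series, described below, with 5 higher and 309 lower. Among its other genes, 714 (2.96%) were higher and 468 (1.94%) lower. The genes called in i53 were chosen on these same pools, which fixes their direction in each line, so their size is given as a description. For the 963 higher genes the median log2 fold change was 0.60 in line 5, 0.61 in line 7 and 0.59 in line 10, and for the 661 lower genes it was -0.60, -0.58 and -0.63.

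Set against each other with no wildtype in the fit, the lines differed in 24 of 26240 genes (0.0915%) in edgeR's test of both line terms, while 3329 had an unadjusted p under 0.05. DESeq2's likelihood ratio test called 821. Line 10 stood apart most often. Its pools were lowest in 13 of the 24 genes and highest in 6, while line 5 was highest in 6 and lowest in 3 and line 7 was highest in 4 and lowest in 0. In pairs, lines 5 and 10 differed in 207 genes, lines 7 and 10 in 15 and lines 5 and 7 in 1. The count of 24 rested on single pools: it was 6, 5 and 1136 without pool 1, 2 or 3 of line 5, 102, 44 and 8 without pool 1, 2 or 3 of line 7, and 9, 25 and 8 without pool 1, 2 or 3 of line 10.

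The gene with the smallest p between the lines, Potri.007G088100, was present in some lines and nearly absent in others. It had 0, 1 and 1 raw counts in the wildtype pools and 0, 0 and 1 in line 5, against 442, 381 and 403 in line 7 and 175, 108 and 79 in line 10. In CPM the last 2 lines were at 15.3 to 25.6 and 10.7 to 11.5. This on-or-off pattern was not limited to i53, since the gene exceeded 1 CPM in 256 of the 378 libraries of the series and in 5 of the 18 wildtype pools. Potri.012G071300, the next by p, had 9.82 to 19 CPM in line 10 against 0.298 to 1.00 CPM in lines 5 and 7 and 0.450 to 3.88 CPM in wildtype. Both genes were named after their values were seen.

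Line 10 also differed from the other lines over a whole series of identifiers. In this nomenclature the 3 digits after "Potri." give the chromosome, and the 009 series has 1707 identifiers in the table, of which 788 had a mean of at least 5 CPM in these 12 pools. The median log2 difference of those genes from the wildtype mean was -0.40, -0.42 and -0.41 in the 3 pools of line 10, which is 0.756, 0.749 and 0.754 of the wildtype level. In lines 5 and 7 the same median ran from -0.02 to 0.03. In the 3 pools of line 10 the medians of all other series, unplaced identifiers included, lay between -0.02 and 0.05. The pattern was chosen after the values were seen and is given as a description, with no test.

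**Figure D3:**
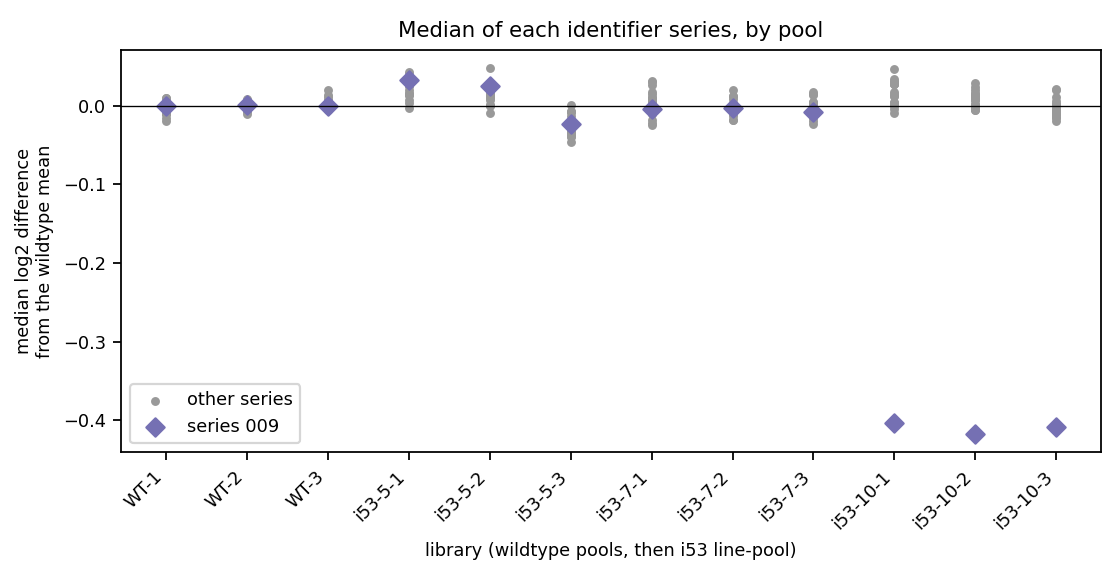
Median log2 difference from the wildtype mean for each identifier series, by pool, with series 009 as diamonds and every other series as a grey dot. The 3 pools of line 10 have series 009 between -0.40 and -0.42, and all other medians lie near 0.

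The shift of series 009 was spread evenly along the identifiers rather than set in one stretch. When its 788 genes were divided into 10 consecutive groups in identifier order, the median of line 10 was between -0.47 and -0.38 in every group. The medians of line 5 ran from -0.04 to 0.06 and those of line 7 from -0.06 to 0.05. In line 10, 88.3, 93.8 and 90.7% of the 788 genes were below the wildtype mean in the 3 pools, beside 48.0, 49.2 and 50.7% of genes of the other series. Against wildtype, 309 of 1064 tested genes of series 009 (29%) were called lower in line 10 and 5 higher, whereas 468 of 24129 other genes (1.94%) were called lower, and 3.08% of all genes tested. In line 5, 10 genes of the series (0.912%) were called lower and 15 (1.37%) higher, beside 0.507% and 1.57% of other genes. In line 7 there were 24 (2.16%) and 33 (2.97%), beside 1.67% and 3.25%. Of the 24 genes that differed between the lines, 7 belonged to series 009, and line 10 was lowest in all 7. Of the 26240 genes tested between the lines, 25135 lay outside the series. The series was chosen on these same pools, so these counts describe the pattern and do not test it. DNA copy number was not measured in these data, and the source of the shift was not tested.

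**Figure D4:**
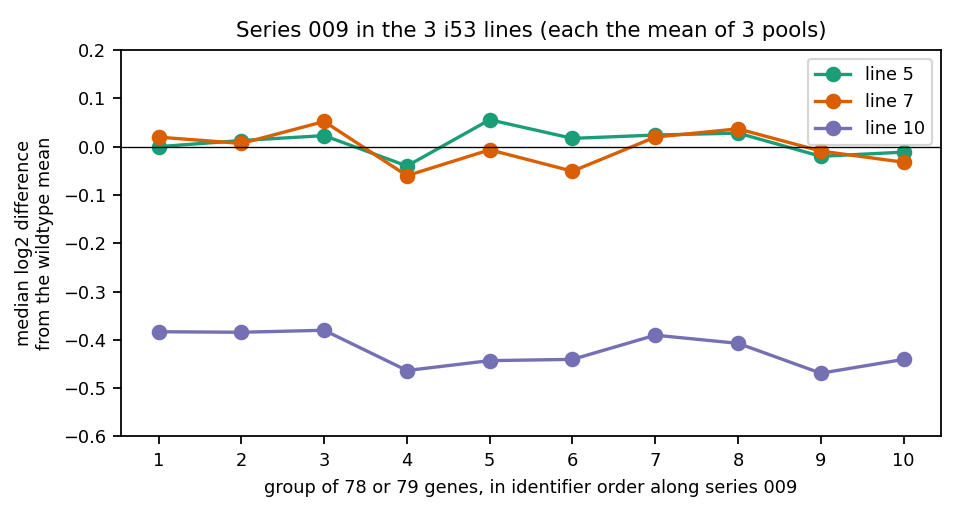
Median log2 difference from the wildtype mean in 10 consecutive groups of 78 or 79 genes along series 009, for lines 5, 7 and 10, each the mean of 3 pools. Line 10 is between -0.47 and -0.38 in all groups and the other lines are near 0.

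The overall comparison was repeated without line 10 and, chosen after the shift was seen, without series 009. Without its 3 pools, 950 genes were higher and 560 lower (5.74% of genes tested in all), beside 963 and 661 with them, and 1164 of the 1622 called genes still tested were called in the same direction. Without the identifiers of series 009, 962 genes were higher and 639 lower. With all lines, series 009 had 34 of 1121 genes called lower (3.03%) and 11 called higher, with a median log2 fold change of -0.10. The level of Potri.009G133600 in line 10 was within the range of the other 2 lines, as given above.

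The genes named were also set against the wildtype pools of all batches, where the 3 pools of batch 6 lay near one end for 3 of the 4 genes. The following values were scaled over the 18 wildtype pools of 6 batches and the 9 i53 pools together, and so differ a little from those above. For Potri.015G062200 the wildtype batch means ran from 23.9 ± 3.79 CPM in batch 2 to 66.3 ± 15.4 CPM in batch 4 (SD, n = 3 each), with batch 6 at 24.1 ± 1.58 CPM, and the i53 pools, at 45.5 to 59.8 CPM, lay inside the overall wildtype range of 19.5 to 76.7 CPM. For Potri.001G256900, batch 6 had the lowest wildtype mean, 20.5 ± 0.370 CPM, and the i53 range of 33.9 to 44 CPM lay within the wildtype range of 16.6 to 67.4 CPM. For Potri.001G059900, batch 6 had the highest wildtype mean, 197.3 ± 41.2 CPM, beside 87.2 to 131.0 CPM in the other batches, and the i53 pools, at 55.1 to 91.7 CPM, overlapped the low end of the wildtype range, which began at 63.1 CPM. For Potri.009G133600, batch 6 was at 12.7 ± 0.885 CPM, near the median of the 18 pools, 14.6 CPM, and the i53 range of 5.30 to 7.27 CPM overlapped the lowest wildtype pool, at 6.21 CPM. Over the called genes, the i53 mean lay above all 18 wildtype pools for 115 of the 963 higher genes (11.9%), beside 2.12% of all genes tested, and below all 18 for 56 of the 661 lower genes (8.47%), beside 1.23%. All 9 i53 pools lay beyond all 18 wildtype pools for 18 of the higher genes (1.87%) and 6 of the lower genes (0.908%). For this stricter measure no share over all genes tested is at hand, so these counts have no background. The called genes were chosen on these same i53 pools and on 3 of these 18 wildtype pools. That choice favours a place beyond all 18 pools, so the counts and shares of both measures are descriptive. With the 18 wildtype pools as one reference group, a setting chosen after seeing the data, 5754 genes were called (21.6% of 26612 tested), with more lower (3377) than higher (2377), and 554 of the 1618 genes called against batch 6 alone were called in the same direction. In that fit Potri.009G133600 was at a log2 fold change of -1.55 (edgeR adjusted p 2.1e-04) and Potri.001G059900 at -0.82 (adjusted p 0.0086), while Potri.015G062200 at 0.42 (adjusted p 0.096) and Potri.001G256900 at 0.05 (adjusted p 0.90) did not pass. A departure of the 3 wildtype pools of batch 6 and an effect of the construct cannot be told apart in this design.

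The other 6 constructs of batch 6 were compared with the same 3 wildtype pools, so the values for the i53 genes are only set side by side. Among the 963 genes higher in i53, the median log2 fold change against wildtype was 0.56 in a12 and 0.58 in a13, which target 4CL3 and 4CL5 singly, 0.97 in i15, which targets both, 0.55 in i21 (CCoAOMT3), 0.14 in i24 (CCoAOMT1 and CCoAOMT2) and 0.41 in i30 (AldOMT2). Among the 661 lower genes the medians, in the same order, were -0.55, -0.48, -0.90, -0.44, -0.27 and -0.36. The median over all genes tested was between 0.01 and 0.03 in these 6 constructs. Potri.015G062200, at 1.15 in i53, was at 1.41 in a12, 0.98 in a13, 1.30 in i15, 0.70 in i21, -0.17 in i24 and 0.08 in i30. Potri.001G256900, at 0.93 in i53, was at 1.16, 0.89, 1.31, 0.84, 0.09 and 0.49 in the same order. Both values were above that of i53 in a12 and i15 and near 0 in i24, and these differences from i53 were not tested. Potri.001G059900 was at -1.15, -0.85, -0.93, -0.93, -1.09 and -0.91, and Potri.009G133600 at -0.12, -0.84, -0.94, -0.76, -0.64 and -0.17, each beside a lower value in i53. These targets are enzymes of the monolignol pathway, which ligate coenzyme A to hydroxycinnamic acids (4CL) or methylate its intermediates (CCoAOMT and AldOMT2).

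The pools of those constructs also served as a reference in place of wildtype, which keeps the batch and the transformation in both groups. Against the mean of i21, i24 and i30, 2130 genes were higher and 2683 lower in i53 (18% of 26799 tested). Of the 1612 genes called against wildtype that were tested here, 565 were called in the same direction and 30 in the opposite direction, with medians of 0.22 and -0.22 for the genes higher and lower against wildtype, and both comparisons used the same i53 pools. The 4 genes named above kept their direction and passed the threshold in edgeR's test. Potri.015G062200 was at a log2 fold change of 0.94 (adjusted p 1.2e-09), Potri.001G256900 at 0.45, Potri.001G059900 at -0.48 and Potri.009G133600 at -0.48. Against all 6 constructs, 2496 genes were higher and 3430 lower (20.6% of 28783 tested). Of the 1620 genes called against wildtype and tested here, 954 kept their sign. Of them, 439 were called in the same direction, and 22 genes were called in the opposite direction. The medians were 0.09 and -0.09 for the genes higher and lower against wildtype. Potri.015G062200 was then at 0.44 (edgeR adjusted p 0.0073) and Potri.001G059900 at -0.47 (adjusted p 7.8e-04), and Potri.001G256900 (0.13, adjusted p 0.34) and Potri.009G133600 (-0.42, adjusted p 0.080) no longer passed.

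**Figure D5:**
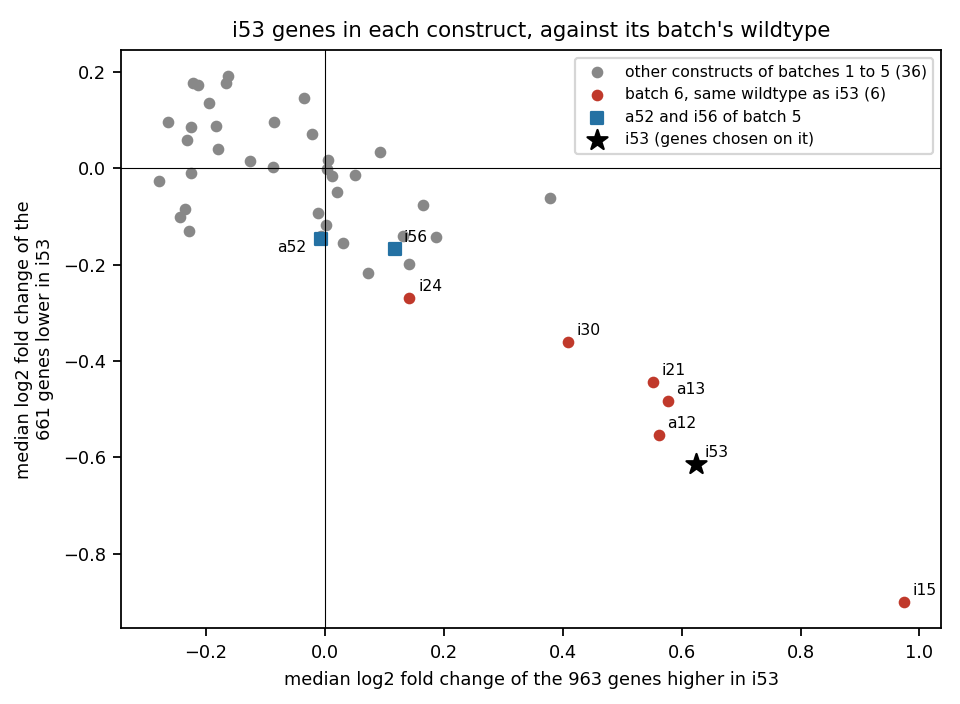
Median log2 fold change, against the wildtype of its own batch, of the 963 genes higher in i53 (horizontal axis) and of the 661 genes lower in i53 (vertical axis), 1 point per construct. Constructs of batch 6 share their wildtype pools with i53 and lie toward it, a52 and i56 are squares, and i53, on which the genes were chosen, is the star.

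In the 38 constructs of batches 1 to 5, which share neither transgenic nor wildtype pools with i53, the i53 genes had medians nearer to 0. The i53 genes and the genes named were chosen for their difference in i53, which favours larger values there. The median log2 fold change of the 963 higher genes ran from -0.28 to 0.38 and that of the 661 lower genes from -0.22 to 0.19. In 12 of the 38 constructs both medians were displaced from the median of all genes in the direction of i53. Potri.015G062200 ranged from -1.37 to 0.73 and Potri.001G256900 from -0.97 to 0.55, and in none of these 38 constructs did either reach its value in i53. Potri.001G059900 ranged from -1.85 to 0.66 and was lower than in i53 in 4 constructs. Potri.009G133600 ranged from -1.52 to 1.33 and was lower than in i53 in 2.

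Construct a52 targets MYB021 alone and i56 targets MYB003 and MYB020, other members of the same group of MYB switches. Both were planted in batch 5 with 3 wildtype pools of their own, which had 4.98 to 11.5 M counts. Against those pools edgeR called 0 genes in a52 (3 pools of 1 line, 25165 genes tested, 0%), with 1853 at an unadjusted p under 0.05, and DESeq2 called 68. Without wildtype pool 2 of batch 5 edgeR called 272 genes in a52, and without pool 1 it called 1. In i56 (8 pools) it called 2 genes higher and 0 lower (0.00744% of 26894), with 3143 at an unadjusted p under 0.05, and DESeq2 called 301. Leaving out any of the 3 wildtype pools took the i56 count to 0. The genes higher in i53 had a median log2 fold change of -0.01 in a52 and 0.12 in i56, and the lower genes -0.15 and -0.17, beside medians over all genes of -0.02 and 0.01.

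The difference between the constructs, each relative to its own wildtype, was tested directly. This test also carries any departure of the wildtype pools of either batch, which cannot be told apart here from a difference between constructs. Compared with a52, the log2 fold change was higher in i53 for 119 genes and lower for 34 (0.559% of 27374 tested). Compared with i56, it was higher in i53 for 123 genes and lower for 79 (0.72% of 28051). Of the 1624 genes called in i53, 106 and 116 were among these. The called genes and the genes named were chosen on the same i53 and batch 6 wildtype pools. That choice favours a difference in this test, so their counts and p-values here are descriptive. Potri.015G062200 was 29.4 to 38.0 CPM in batch 5 wildtype and 39.2 to 43.9 CPM in a52, and its log2 fold change was higher in i53 than in a52 by 0.82 (edgeR adjusted p 0.023) and than in i56 by 1.19 (0.032). Potri.001G256900 was higher by 0.99 (edgeR adjusted p 0.027) and 1.33 (0.0044). Potri.001G059900, at -1.63 and -1.43, did not pass (edgeR adjusted p 0.060 in both), and neither did Potri.009G133600, at -0.69 and -0.43 (0.26 and 0.48). The counts of such genes rested on single wildtype pools. Against a52 they were 656, 269 and 57 without pool 1, 2 or 3 of batch 5 and 55, 34 and 23 without pool 1, 2 or 3 of batch 6. Against i56 they were 280, 329 and 61, and 91, 42 and 59, in the same order.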

How the data were processed

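Xylem RNA-seq counts were used for the 9 i53 pools, the 3 wildtype pools of batch 6 and, for comparison, the other labelled libraries. The authors made TruSeq libraries, sequenced them on the GAIIx platform, used Bowtie and TopHat for alignment to genome v3.0, and obtained a raw count for each gene with BedTools. These deposited counts precede the TMM scaling that the authors applied later. How reads that map to several genes were counted, and whether by strand, is not given in the sources used here. Columns outside the labelled samples numbered 0.

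Counts were tested in R 4.3.3 with edgeR 4.0.16 (filterByExpr, TMM, glmQLFit, glmQLFTest, Benjamini-Hochberg adjustment over all genes tested, threshold 0.05), after a check on simulated data. Each construct was compared with the wildtype of its own batch. Log2 CPM used a prior count of 2. Fold changes are from the fit, and CPM are scaled by TMM. Pools are the replicates, so p-values measure the spread between pools, and pools of a line share an insertion. Precision is limited by the 3 wildtype pools and, for genes of few counts, by depth.

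Alternatives were RLE scaling, DESeq2 1.42.0, other filters on low counts, all batch 6 libraries in one fit, line sums, the pool number as a block, other reference groups, and leaving out each pool or line. The rule for named genes takes, for identifiers without an annotated product, the 2 genes of smallest p in each direction, among called genes whose groups do not overlap. The members and lists were chosen with earlier results of these data known. The lists of monolignol, cellulose synthase, other wall, regulator and tissue marker genes, and the values of the targeted genes, were not run, since no identifier could be paired with a name. Figures were drawn with matplotlib 3.10.9 in Python 3.11.15.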

Additional observations from a re-analysis of the deposited data

Results flagged for a closer look

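One i53 pool, pool 1 of line 5, stood apart from the other 8 in the share of counts taken by its 10 most abundant genes, at 5.46% beside 3.85 to 4.56%. The gap was 0.556 of the whole range, above the critical value of Dixon's test for 9 samples. Of 8 measures tested this way over the i53 pools this was the 1 that passed. Chance gives about 1 in 20 for each single measure, and so more often at least 1 among 8. Without that pool, 1748 genes were called in edgeR's test against wildtype, beside 1624 with it.

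Differences between groups were found in 3 tests. The 3 i53 lines differed from each other in 24 genes, i53 and a52, each against its own wildtype, differed in 153 genes, and i53 and i56 differed in 202 genes. In the tests with a52 and i56, a departure of the wildtype pools of a batch cannot be told apart from a difference between constructs.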

How the results depend on the processing

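For i53 against wildtype, 1624 genes were called. The count moved by over 1.5 times with DESeq2 (2519), with all batch 6 libraries in the fit (221), with the pools of each line added up (872), with line 5 alone (537), without line 7 (650), with 6 other constructs as reference (5926) and with i21, i24 and i30 as reference (4813). Chosen after seeing the data, the 2-fold threshold gave 350 and the 18 wildtype pools as reference gave 5754. Leaving out 1 pool gave 506 to 1853. The pool number as replicate block gave 1423. Same-numbered wildtype and i53 pools deviated with correlations of -0.15 to 0.15, so the numbers were not taken as pairs. With line 10 alone the split was 719 higher and 777 lower. Under these settings the higher and lower calls were 78 and 143 with all batch 6 libraries and 2377 and 3377 with the 18 wildtype pools. RLE scaling and the filters on low counts gave 1434 to 1657.

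The comparison of lines gave 821 genes with DESeq2 and 5 to 1136 without 1 pool, and 16 without series 009, a setting chosen after seeing the data. For a52, leaving out 1 wildtype pool gave 0 to 272 genes and DESeq2, chosen after seeing the data, gave 68. For i56 these were 0 to 0 and 301, and 1 with no filter on low counts. The difference of i53 and a52 was called for 72 genes with no filter and 23 to 656 without 1 wildtype pool, and that of i53 and i56 for 121 and 42 to 329. The cause of these shifts was not tested.

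Of the genes named, Potri.001G059900 passed in all 29 alternatives. Potri.015G062200 missed the threshold with the 18 wildtype pools (0.42, edgeR adjusted p 0.096), Potri.001G256900 in 2 of 29, with those pools (0.05, adjusted p 0.90) and with 6 constructs as reference, and Potri.009G133600 in 2 of 28, with adjusted p up to 0.10. No named gene changed direction. The alternatives for lignin genes, cellulose synthase genes and targeted genes were not run, since no identifier could be paired with a name. Depth limits genes of low counts, and 14733 genes were not tested.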

Other observations

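The drop of identifier series 009 in line 10 of i53 was looked for in the other 375 libraries of the series, each against the wildtype mean of its own batch and as the median of series 009 minus the median of the other genes. In line 2 of i45, labelled as a knockdown of MYB090 and MYB167 in batch 2, the 3 pools were at -0.38, -0.42 and -0.41 on the log2 scale, beside -0.42, -0.42 and -0.41 in the pools of line 10 of i53. In line 9 of a18, labelled as a knockdown of HCT6 in batch 5, the pools disagreed, with pool 1 at 0.01, pool 2 at -0.17 and pool 3 at -0.30. The other libraries lay between -0.04 and 0.06.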
